A study of Mus musculus with 4 samples.

Results

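Conventional dendritic cells of the mouse spleen were picked out of single-cell RNA sequencing libraries as barcodes that carried the RNA of dendritic lineage genes and lacked that of neighbouring cell types. A cell was taken with at least 1 UMI of Flt3 or Zbtb46 together, at least 10 of Cst3, at least 10 of the MHC class II genes H2-Aa and H2-Ab1 together, at most 1 of Siglech, at most 2 of the 3 C1q genes, fewer than 20 of S100a8 and S100a9, and none of Cd79a, Ms4a1 or the 3 Cd3 genes. A UMI (unique molecular identifier) counts 1 captured RNA molecule. Barcodes with fewer than 200 detected genes, or with over 10% of their UMIs from mitochondrial genes, had been left out first. The rule found 98 cells among the 20476 barcodes kept, out of 24106 deposited. The cells were thus chosen by measured values of these genes, which are not results here.

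The mice were 10 weeks old, and spleens were taken 4 h after an intravenous injection of 100 µl holding 9 µg recombinant murine TNF, or of PBS. The 4 libraries were TRIF-KO (C57BL/6 background) with TNF, wild-type (WT) C57BL/6 with TNF, TRIF-KO with PBS and WT with PBS. Red blood cells had been lysed and dead cells removed. There was 1 library per group, so a difference between libraries has no replicate check and no test was made. The number of mice behind a library and the deleted allele are not named in the labels. "Higher" and "lower" below mean at least 2-fold unless a value is given, and 95% intervals cover counting error alone.

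Conventional dendritic cells (cDCs) take up antigen, carry it to T-cell zones and prime T cells. The cDC1 branch depends on Irf8 and Batf3 and cross-presents antigen to CD8 T cells, whereas the cDC2 branch bears Sirpa and mainly serves CD4 T cells. When a cDC matures it stops taking up antigen, raises costimulatory molecules and the chemokine receptor Ccr7, and moves into the T-cell zone. TNF is one of the signals that drive maturation, through TNF receptors and the transcription factor NF-kB. TRIF, encoded by Ticam1, is an adaptor by which Toll-like receptors 3 and 4 can reach NF-kB and interferon genes.

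The cDCs numbered 23 of 7061 kept barcodes in TRIF-KO with TNF, a share of 0.326% (exact binomial interval 0.207 to 0.488). They numbered 18 of 5254 in WT with TNF (0.343%, 0.203 to 0.541), 32 of 5659 in TRIF-KO with PBS (0.565%, 0.387 to 0.797) and 25 of 2502 in WT with PBS (0.999%, 0.648 to 1.47). Both TNF libraries thus held smaller shares than either PBS library, and the intervals of TNF and PBS overlapped in TRIF-KO but not in WT. The share depends on detecting Flt3 or Zbtb46. Of the barcodes that met every other criterion, 23 of 96 in TRIF-KO with TNF and 18 of 73 in WT with TNF also had such a UMI. With PBS these numbers were 32 of 66 in TRIF-KO and 25 of 42 in WT. The barcodes without such a UMI were not all cDC-like. At least 100 UMIs of Lyz2, a gene of monocytes and macrophages, were found in 8, 2, 4 and 10 of them in that order. Exactly 1 UMI of the pair was the basis of the choice in 14, 9, 9 and 7 cells of those libraries, and among B-cell barcodes 7.44%, 4.27%, 1.68% and 2.74% carried a UMI of the pair. Just inside the Cst3 limit, with 10 or 11 UMIs, lay 0, 2, 2 and 2 cells in the same order, and 1, 1, 4 and 1 barcodes lay just outside with 8 or 9.

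The cDCs held 295627 UMIs in TRIF-KO with TNF, 164983 in WT with TNF, 354074 in TRIF-KO with PBS and 391369 in WT with PBS, at medians of 8517, 9213, 9939 and 13663 UMIs per cell. Barcodes left out for mitochondrial RNA made up 11.6%, 22.4%, 10.8% and 6.26% of the deposited barcodes in that order, and the part of this filter in the shares was not tested. Pairs of libraries shared 2 to 11 kept barcodes and no cDC barcode. Levels are given as CPM, the UMIs of a gene scaled to 1000000 UMIs of the cDCs of a library. A gene was called measured where its UMIs in all cDCs came to 60 or more and its level in some library to 50 CPM or more. A CPM value summed over cells cannot tell fewer expressing cells from less RNA per cell, so numbers of cells are given beside the levels that matter.

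Markers outside the rule fitted the label. Xcr1, the chemokine receptor of cDC1, stood at 30.4, 12.1, 274 and 222 CPM in cDCs of TRIF-KO with TNF, WT with TNF, TRIF-KO with PBS and WT with PBS, against 0.354, 0.249, 1.14 and 7.90 CPM in all other kept barcodes. Cd209a, a lectin of cDC2, stood at 6.77, 30.3, 410 and 130 CPM, against 0.461, 1.12, 5.69 and 7.54 CPM in the other barcodes. Both markers were thus enriched in every library and much lower in the TNF libraries. NK-cell markers, which the rule did not use, summed to between 1 and 6 UMIs per library. The B-cell markers other than Cd79a and Ms4a1 summed to between 4 and 22 UMIs and the T-cell markers other than the 3 Cd3 genes to 1 or 2, though a choice of cells without those genes also lowers these sums.

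A few cells went against the label. In TRIF-KO with TNF, 2 cells held 532 of the 543 UMIs of Lyz2, a lysozyme of monocytes and macrophages, and 23.9% of all cDC UMIs of the library. They also held 318 of 319 UMIs of the haem oxygenase Hmox1, with 317 in 1 cell. Hmox1 made up 319 of the 363 macrophage-marker UMIs of that library. Macrophage markers summed to 1228 CPM there, against 158, 98.9 and 10.2 CPM in WT with TNF, TRIF-KO with PBS and WT with PBS, and monocyte markers to 1032, against 158, 811 and 276 CPM, while of the monocyte markers Vcan was at 0 in every library and Chil3 had 1 UMI in WT with PBS and none elsewhere. In WT with TNF, 1 cell held 10635 of the 10907 haemoglobin UMIs and 10.1% of all UMIs. Counts over gene lists that changed without these 3 cells are given both ways.

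Cells were also marked by lineage. A cell was cDC1-marked where its UMIs of Xcr1 and Clec9a outnumbered those of Cd209a, Clec4a4 and Clec10a, cDC2-marked in the opposite case, and neither where they were equal. The cDC1-marked cells were 7 of 23 in TRIF-KO with TNF, 4 of 18 in WT with TNF, 11 of 32 in TRIF-KO with PBS and 11 of 25 in WT with PBS. The cDC2-marked cells were 3, 3, 15 and 12 in that order. Cells with neither mark thus made up 56.5% in TRIF-KO with TNF and 61.1% in WT with TNF, against 18.8% in TRIF-KO with PBS and 8% in WT with PBS. After thinning every cell to 3000 UMIs and leaving out 3, 4, 1 and 0 shallower cells, these shares were 85%, 57.1%, 22.6% and 40%. The marks themselves were lower in the TNF libraries, so a cell without a mark cannot be given to a lineage by them.

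The most visible change with TNF was the number of cDCs with maturation genes. Ccr7 guides cells towards T-cell zones, Fscn1 bundles actin in dendrites and Ccl22 attracts T cells. At least 3 UMIs of these genes were found in 12 of 23 cells of TRIF-KO with TNF (52.2%, exact binomial interval 30.6 to 73.2) and in 12 of 18 of WT with TNF (66.7%, 41.0 to 86.7). The same held for 2 of 32 cells of TRIF-KO with PBS (6.25%, 0.766 to 20.8) and 1 of 25 of WT with PBS (4%, 0.101 to 20.4). With either genotype the TNF and PBS intervals did not overlap, whereas those of TRIF-KO and WT with TNF did. At 3000 UMIs per cell the shares were 35% (15.4 to 59.2), 50% (23.0 to 77.0), 6.45% (0.791 to 21.4) and 4% (0.101 to 20.4). At that depth the TNF and PBS intervals overlapped in TRIF-KO but not in WT. A Fscn1 UMI was found in 10 of 23, 9 of 18, 2 of 32 and 0 of 25 cells, against 0.561%, 0.300%, 0.159% and 0.152% of B-cell barcodes, at median depths of 5805.5, 4170, 3911 and 6112 UMIs. Ccr7 has no such blank, since B cells use it and 22.8% to 39.5% of their barcodes had a UMI. Of the mature cells, 9 of 12 in TRIF-KO with TNF and 7 of 12 in WT with TNF bore neither lineage mark, as did all 3 of the PBS libraries.

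**Figure D1:**
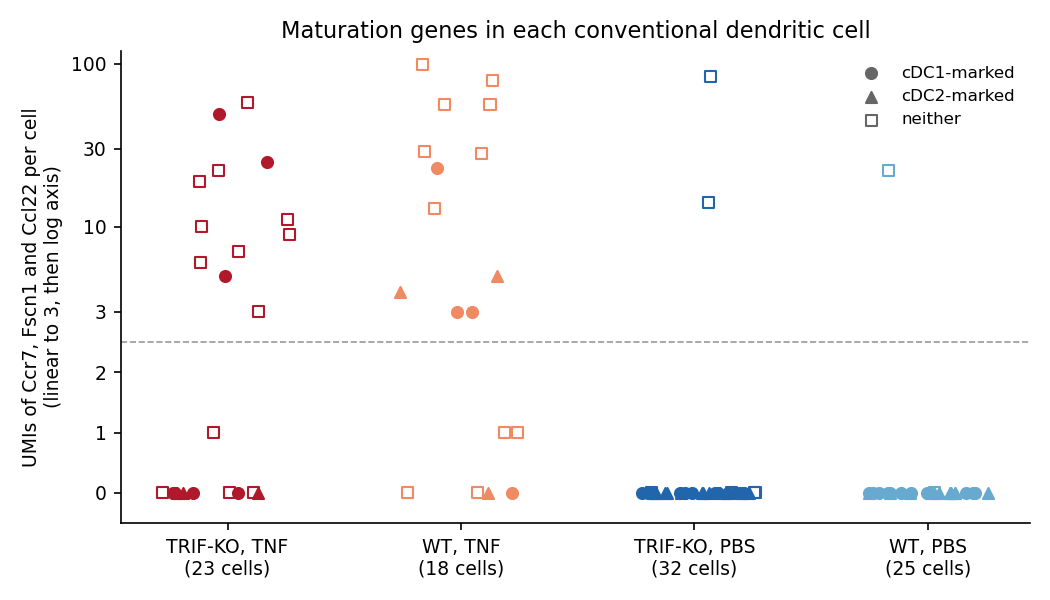
UMIs of Ccr7, Fscn1 and Ccl22 summed in each cDC (vertical axis, linear to 3 and logarithmic above) by library, with 1 point per cell and its lineage mark as the symbol; the dashed line lies below 3 UMIs. In the TNF libraries 12 of 23 and 12 of 18 cells lie above the line, in the PBS libraries 2 of 32 and 1 of 25.

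Across all genes TNF went with more lower than higher genes in WT. Of 2666 genes compared in WT, 221 were higher with TNF than with PBS (8.29%) and 707 lower (26.5%), with a median log2 ratio of -0.37. Of 2670 compared in TRIF-KO, 216 were higher (8.09%) and 271 lower (10.1%), with a median of -0.01. The split in WT depended on scaling: with median-of-ratios size factors 324 were higher and 457 lower, and the median was 0.0094. With each cell weighted equally 445 were lower in TRIF-KO. Without the richest cell of each gene in each library, 180 of the 221 and 696 of the 707 were still called in WT, and 156 of the 216 and 267 of the 271 in TRIF-KO. Among 2662 genes compared in both genotypes, 99 were higher with TNF in both, which was 46.5% of those higher in TRIF-KO and 45.6% of those higher in WT. Lower in both were 184 genes, which was 68.4% of those lower in TRIF-KO and 26.0% of those lower in WT.

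Most measured genes of maturation and migration were higher with TNF in each genotype. Of 28 listed genes 21 were measured, and 12 were higher and none lower in TRIF-KO (background 8.09% higher), with a median log2 ratio of 1.11 against -0.01 for all genes. In WT, 19 of 21 were higher and none lower (background 8.29% higher), with a median of 3.08 against -0.37. Without the 3 cells rich in Lyz2 or haemoglobin, 16 of 20 were higher in TRIF-KO and 18 of 20 in WT, and under a relaxed choice of cells, with lower limits for Cst3 and class II genes and higher ones for Siglech, B-cell and T-cell genes, 10 of 22 were higher in TRIF-KO and 18 of 22 in WT.

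Ccr7 (chromosome 11, 99144196 to 99155077, minus strand, GRCm38) had 116 UMIs in 11 cells of TRIF-KO with TNF and 247 in 13 cells of WT with TNF. It had 34 UMIs in 2 cells of TRIF-KO with PBS and 19 in 1 cell of WT with PBS. The levels were 392, 1497, 96.0 and 48.5 CPM, so that both TNF libraries stood above both PBS libraries. The log2 ratio of TNF to PBS was 2.03 (1.47 to 2.63) in TRIF-KO and 4.95 (4.27 to 5.70) in WT. Without the richest cell of each library it was 3.83 in TRIF-KO, since 28 of the 34 UMIs with PBS lay in 1 cell. Fscn1 (chromosome 5, 142960343 to 142973185, plus strand) had 95, 108, 63 and 0 UMIs in the same order, with 55 of the 63 in 1 cell of TRIF-KO with PBS. It was at least 85.4-fold higher with TNF in WT, against the floor of 3 counts in the PBS library, and had a log2 ratio of 0.85 (0.38 to 1.34) in TRIF-KO, or 3.12 without the richest cells. In TRIF-KO with PBS both genes were read only in the 2 mature cells. This is no result, because mature cells were chosen by these genes. Of genes outside that choice, Fabp5 had none of its 16 UMIs in the 2 mature cells and Marcksl1 40 of 51.

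Fabp5 (chromosome 3, 10012548 to 10016607, plus strand), a fatty-acid-binding protein, had 685 UMIs in TRIF-KO with TNF, 518 in WT with TNF, 16 in TRIF-KO with PBS and 35 in WT with PBS. The levels of 2317, 3140, 45.2 and 89.4 CPM gave log2 ratios of 5.68 (4.97 to 6.50) in TRIF-KO and 5.13 (4.64 to 5.67) in WT. The UMIs were unevenly spread: 288 of the 685 and 247 of the 518 lay in 1 cell each. Bcl2l11, which encodes the death-promoting protein Bim, had 74, 92, 6 and 3 UMIs in 14, 12, 5 and 2 cells, with log2 ratios of 3.88 (2.69 to 5.38) in TRIF-KO and 6.18 (4.59 to 8.49) in WT. The cell-cycle regulator Ccnd2 had 177, 153, 14 and 17 UMIs, with ratios of 3.92 (3.14 to 4.82) and 4.42 (3.69 to 5.23). These genes were thus higher with TNF in both genotypes and were read in a larger share of the cells.

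Further maturation genes moved in the same direction in both genotypes. Il4i1, a secreted amino acid oxidase, stood at 497, 497, 144 and 58.8 CPM in TRIF-KO with TNF, WT with TNF, TRIF-KO with PBS and WT with PBS, but in the S100a4-low cells described further on its log2 ratio in TRIF-KO was -0.036. Marcksl1, an actin regulator, stood at 555, 685, 144 and 51.1 CPM and was found in 21 of 23 and 18 of 18 cells with TNF, against 8 of 32 and 8 of 25 with PBS. Samsn1, a signalling adaptor, stood at 562, 897, 217 and 76.7 CPM. In each of them TRIF-KO stood at or below WT when both had TNF, and above WT when both had PBS. Socs2, a suppressor of cytokine signalling, had 36, 35, 12 and 0 UMIs, which was at least 27.7-fold higher with TNF in WT and a log2 ratio of 1.85 (0.87 to 2.92) in TRIF-KO. The chemokine Ccl22 had 14, 45, 0 and 3 UMIs, which was at least 5.59-fold higher in TRIF-KO and a log2 ratio of 5.15 (3.51 to 7.48) in WT.

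**Figure D2:**
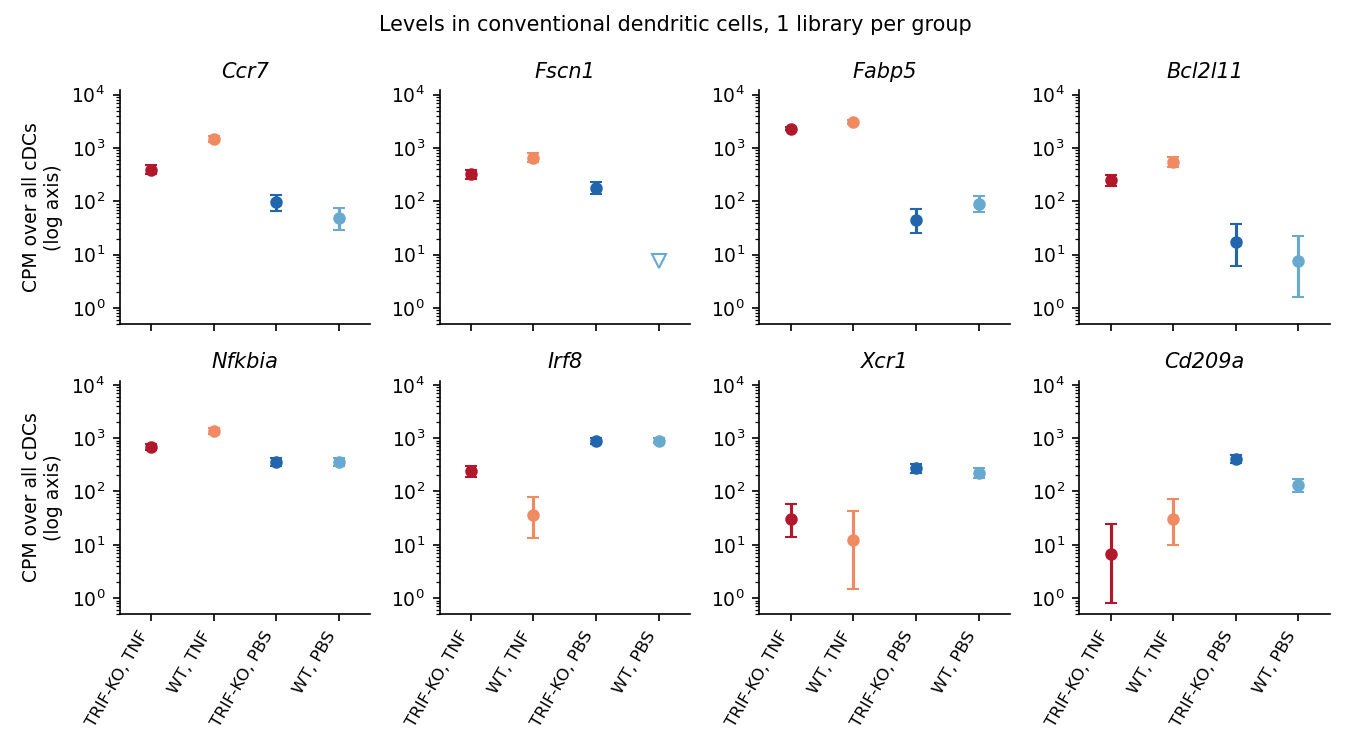
Levels of 8 genes in CPM over all cDCs of a library (vertical axis, logarithmic) with exact 95% Poisson intervals, 1 library per group; the open triangle marks 0 UMIs, drawn at the floor of 3 counts. Ccr7, Fabp5 and Bcl2l11 stood higher and Irf8, Xcr1 and Cd209a lower in both TNF libraries than in both PBS libraries.

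Costimulatory and checkpoint genes split. Of 18 listed genes 8 were measured, and 3 were higher and 1 lower in each genotype, beside a background of 8.09% higher and 10.1% lower in TRIF-KO and 8.29% and 26.5% in WT. Without the 3 cells rich in Lyz2 or haemoglobin 5 of 8 were higher in TRIF-KO and 4 of 8 in WT, and under the relaxed choice 1 of 9 in TRIF-KO and 5 of 9 in WT. Cd40, the receptor for T-cell help, stood at 142, 176, 65.0 and 33.2 CPM in TRIF-KO with TNF, WT with TNF, TRIF-KO with PBS and WT with PBS, with log2 ratios of 1.13 (0.36 to 1.93) in TRIF-KO and 2.40 (1.41 to 3.47) in WT. Cd274, the checkpoint ligand PD-L1, stood at 142, 242, 14.1 and 30.7 CPM, with ratios of 3.33 (2.0 to 5.03) and 2.98 (2.02 to 4.05). Both genes thus stood at least 2-fold above PBS in each genotype. Cd83 stood at 196, 394, 124 and 97.1 CPM and passed 2-fold in WT (2.02, 1.42 to 2.64) but not in TRIF-KO (0.66, 0.07 to 1.26). Cd86 stood at 115, 218, 70.6 and 128 CPM, and its ratios of 0.70 and 0.77 did not reach 2-fold. The inhibitory receptor Havcr2 was lower with TNF in both, at 54.1, 42.4, 124 and 212 CPM.

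The MHC class II pathway was largely level or lower. Of 11 measured genes, 1 was higher and 5 lower in TRIF-KO (background 10.1% lower), and none higher and 4 lower in WT (background 26.5% lower), or 1 higher and 2 lower in WT under that other scaling. Leaving out the 3 cells gave 1 higher and 4 lower in each genotype. Ciita, the master activator of class II genes, stood at 220, 90.9, 463 and 708 CPM, with log2 ratios of -1.07 (-1.51 to -0.65) in TRIF-KO and -2.96 (-3.82 to -2.21) in WT. The peptide-exchange chains H2-DMa and H2-DMb1 were also lower with TNF in both genotypes. The class II chain H2-Eb1 stood at 5006, 7843, 5945 and 7461 CPM and the invariant chain Cd74 at 12769, 17317, 13717 and 16547 CPM, each within 2-fold across the 4 libraries. Ifi30, a lysosomal reductase, stood at 2205, 1891, 972 and 1280 CPM and passed 2-fold in TRIF-KO (1.18, 0.99 to 1.38), not in WT (0.56, 0.35 to 0.77). Of 14 measured class I pathway genes, 1 was higher in TRIF-KO and none in WT, and none was lower in either.

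Chemokines of the cDCs themselves were mostly higher with TNF. In both genotypes Ccl5, Ccl22, Cxcl9 and Cxcl16 were higher, of 6 genes compared in TRIF-KO and 5 in WT (background 8.09% and 8.29% higher), and Ccl6 was lower in TRIF-KO. Without the 3 cells 3 of 5 were higher and 2 lower in TRIF-KO and 3 of 4 higher in WT. Under the relaxed choice 3 of 6 were higher in each genotype, with 2 lower in TRIF-KO and 1 in WT. Cxcl16, the ligand of Cxcr6, stood at 406, 570, 53.7 and 86.9 CPM and was found in 22 of 23, 16 of 18, 6 of 32 and 8 of 25 cells. Cxcl9, which draws Cxcr3-bearing T cells, stood at 1153, 861, 404 and 271 CPM, with 117 of the 143 UMIs of TRIF-KO with PBS in 1 cell and no higher level with TNF in TRIF-KO under a stricter choice of cells with at least 2 UMIs of Flt3 and Zbtb46 and at most 5% mitochondrial RNA (log2 ratio -0.11). Ccl5, which draws T cells, stood at 578, 1030, 268 and 166 CPM, but its ratio in TRIF-KO was -1.65 in cDC2-marked cells alone. Cytokine genes were scarcely read: of 19 listed, 3 were measured, Il6 had 1 UMI in WT with PBS and none elsewhere, and Il10, Il12a, Il23a and Ifnb1 had none in any library.

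Genes of the NF-kB circuit were mostly higher with TNF in WT. Of 32 listed genes 22 were measured, and 10 were higher and 1 lower in TRIF-KO, with a median log2 ratio of 0.95 (background 8.09% higher, median -0.01). In WT 17 of 22 were higher and none lower, with a median of 1.44 (background 8.29% higher, median -0.37). Without the 3 cells rich in Lyz2 or haemoglobin, 14 of 20 were higher in TRIF-KO and 15 of 20 in WT, and under the relaxed choice 6 of 25 and 19 of 25. The survival gene Bcl2a1b stood at 1258, 1903, 294 and 493 CPM in TRIF-KO with TNF, WT with TNF, TRIF-KO with PBS and WT with PBS, though near-identical copies of this gene can share reads. Birc2, a ubiquitin ligase that restrains cell death, stood at 240, 430, 116 and 35.8 CPM, and Gadd45b, a stress-signalling gene, at 250, 582, 110 and 46.0 CPM.

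The feedback inhibitors differed in whether they passed 2-fold. Nfkbia, which encodes the inhibitor that holds NF-kB in the cytoplasm, had 203 UMIs in 17 cells of TRIF-KO with TNF, 229 in 16 cells of WT with TNF, 128 in 22 cells of TRIF-KO with PBS and 142 in 18 cells of WT with PBS. The log2 ratio was 0.93 (0.60 to 1.26) in TRIF-KO and 1.94 (1.63 to 2.25) in WT. Tnfaip3, which encodes the deubiquitinase A20, had 21, 20, 13 and 9 UMIs, with ratios of 0.95 (-0.11 to 2.07) and 2.40 (1.20 to 3.72). The subunit Rel had 84, 91, 54 and 74 UMIs, with ratios of 0.90 (0.39 to 1.42) and 1.54 (1.09 to 2.01). All 3 genes thus stayed just short of 2-fold in TRIF-KO and passed it in WT, and for Tnfaip3 and Rel the intervals overlapped. Nfkb1 stood at 173, 406, 378 and 207 CPM, lower with TNF in TRIF-KO (-1.13, -1.63 to -0.66) and at 0.97 (0.48 to 1.46) in WT.

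The promoters of these 3 genes are shown because each holds a match to the consensus motif of NF-kB, the kB motif. It was searched on both strands in RefSeq windows of 300 bases around the gene start (GRCm38.p6). A match was found for 13 of the 27 NF-kB circuit genes with a window, 48.1%, for 1 of 20 maturation genes, 5%, and for 1769 of 27025 genes in the table, 6.55%. The 150 bases before the gene start are given 5' to 3' on the gene's strand, with matches in capitals: Rel at chr11:23770970-23771119, Nfkbia at chr12:55492648-55492797 and Tnfaip3 at chr10:19015411-19015560, all on the minus strand. A match is a string of letters and shows no binding in these cells.
Rel: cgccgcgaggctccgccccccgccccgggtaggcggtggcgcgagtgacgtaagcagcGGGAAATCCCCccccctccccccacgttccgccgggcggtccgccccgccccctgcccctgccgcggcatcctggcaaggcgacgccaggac
Nfkbia: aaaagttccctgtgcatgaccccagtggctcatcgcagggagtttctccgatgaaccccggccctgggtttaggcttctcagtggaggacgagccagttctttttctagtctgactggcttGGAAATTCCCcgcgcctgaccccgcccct
Tnfaip3: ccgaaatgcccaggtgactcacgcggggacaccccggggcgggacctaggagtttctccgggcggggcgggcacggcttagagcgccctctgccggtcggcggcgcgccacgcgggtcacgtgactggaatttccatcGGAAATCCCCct
The first match starts 92 bases before the gene start in Rel, 29 in Nfkbia and 12 in Tnfaip3. Rel holds 2 matches that overlap, and the others hold 1 each.

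**Figure D3:**
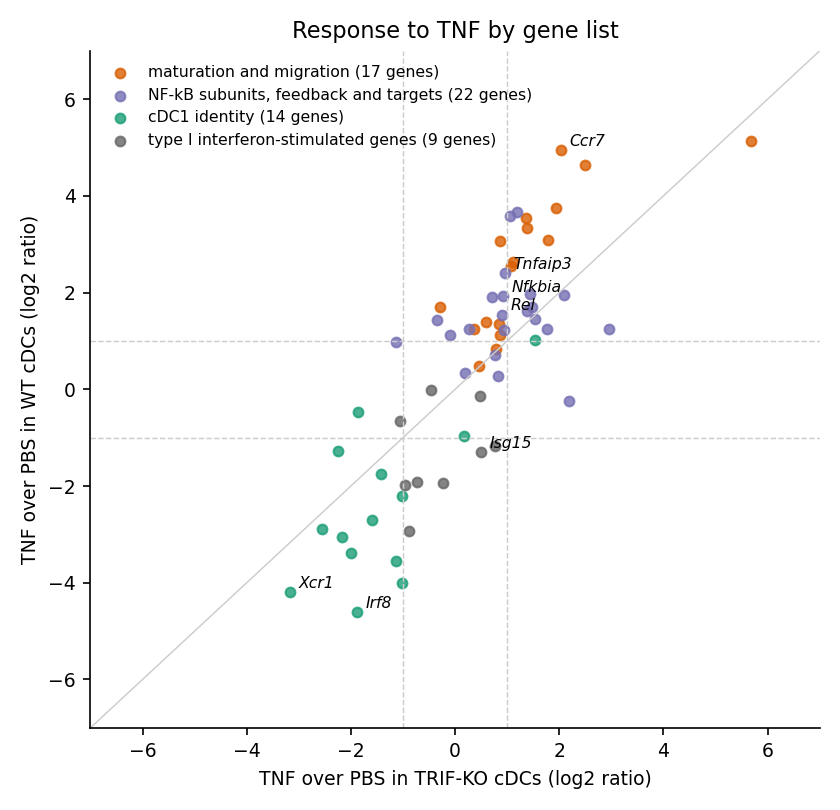
Log2 ratio of TNF to PBS in WT cDCs (vertical axis) against that in TRIF-KO cDCs (horizontal axis), 1 point per measured gene of 4 lists; dashed lines mark 2-fold and the solid line equal ratios, and 4 maturation genes with 0 UMIs in a library are not drawn. Maturation genes lie up to the right with most above the line of equal ratios, and cDC1 identity genes lie mostly down to the left.

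Genes of cDC1 identity were lower with TNF in both genotypes. Of 18 listed genes 14 were measured, and 12 were lower and 1 higher in TRIF-KO (background 10.1% lower), with a median log2 ratio of -1.73. In WT 11 were lower and 1 higher (background 26.5% lower), with a median of -2.80. When the 3 cells were left out, 9 of 14 were lower in TRIF-KO and 12 of 14 in WT. Irf8 (chromosome 8, 120736358 to 120756694, plus strand), the transcription factor on which cDC1 depend, had 71 UMIs in 7 of 23 cells of TRIF-KO with TNF and 6 in 4 of 18 cells of WT with TNF. With PBS it had 312 in 24 of 32 cells of TRIF-KO and 348 in 11 of 25 cells of WT. The log2 ratio was -1.88 (-2.27 to -1.50) in TRIF-KO and -4.61 (-6.07 to -3.48) in WT. A single cell held 55 of the 71 UMIs of TRIF-KO with TNF, and the ratio there was -3.67 without the richest cells.

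Other cDC1 genes followed the same direction. Xcr1 had 9, 2, 97 and 87 UMIs in TRIF-KO with TNF, WT with TNF, TRIF-KO with PBS and WT with PBS, with log2 ratios of -3.17 (-4.34 to -2.19) in TRIF-KO and -4.20 (-7.27 to -2.30) in WT. Clec9a, a receptor for dead cells, had 7, 3, 49 and 53 UMIs. Naaa, a lysosomal amidase, had 63, 8, 165 and 223 UMIs, with 47 of the 63 in 1 cell of TRIF-KO with TNF, and Ppt1, a lysosomal thioesterase, had 70, 14, 334 and 345. All 4 genes were lower in each TNF library than in each PBS library. Batf3, the partner factor of Irf8, was close to level in TRIF-KO, at 149 CPM with TNF and 133 with PBS, and stood at 109 CPM with TNF and 212 with PBS in WT.

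Genes of cDC2 identity were thinly read. Of 20 listed genes 9 were measured, and 4 of 9 were lower and 1, Lyz2, higher in TRIF-KO (background 10.1% lower), while 4 of 8 compared were lower and none higher in WT (background 26.5% lower). Lyz2 rested on the Lyz2-rich cells of TRIF-KO with TNF, and 5 of 8 were lower and none higher in TRIF-KO without the 3 cells. Cd209a had 2, 5, 145 and 51 UMIs, with log2 ratios of -5.92 (-8.98 to -4.04) in TRIF-KO and -2.10 (-3.79 to -0.79) in WT. Notch2, a receptor needed by splenic cDC2, had 2, 1, 39 and 26 UMIs, with ratios of -4.03 (-7.12 to -2.08) and -3.45 (-8.81 to -0.85). Ltb, a lymphotoxin chain, had 20, 11, 62 and 105 UMIs. Sirpa, in contrast, stood at 98.1 CPM with TNF and 84.7 with PBS in TRIF-KO, and at 42.4 with TNF and 151 with PBS in WT. The loss of the marks was thus seen in genes of both branches.

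Other transcription factors and receptors of dendritic cells moved in both directions. The background was 8.09% higher and 10.1% lower in TRIF-KO, and 8.29% higher and 26.5% lower in WT. Of the listed transcription factors 4 were higher and 4 lower of 19 in TRIF-KO. In WT 3 were higher and 5 lower of 18, and the lower ones were close to the background share. Of 10 uptake receptors 1 was higher and 2 lower in TRIF-KO, or 5 lower without the 3 cells, and 2 were higher and 7 lower in WT. Bcl11a, a factor of lymphoid and dendritic progenitors outside that list, had 17 UMIs in TRIF-KO with TNF, 0 in WT with TNF, 94 in TRIF-KO with PBS and 128 in WT with PBS. It was at least 18-fold lower with TNF in WT, and its log2 ratio in TRIF-KO was -2.21 (-3.05 to -1.45). Bhlhe40, a factor of activated cells, stood at 179, 442, 45.2 and 28.1 CPM, higher with TNF in both genotypes. Ly75, the uptake receptor DEC-205, had 35, 65, 6 and 10 UMIs in 16, 11, 4 and 4 cells, likewise higher in both. Gpr183, an oxysterol receptor that positions cDC2, stood at 247, 327, 73.4 and 125 CPM, also higher in both. Rgs2, which damps G-protein signals, had 49, 3, 188 and 248 UMIs, the leukotriene pathway gene Alox5ap 41, 2, 191 and 159, and Plbd1, a phospholipase of myeloid cells, 28, 10, 301 and 325. These 3 genes were lower with TNF in both genotypes, and Tnfrsf1a, TNF receptor 1 itself, had 11, 4, 32 and 25 UMIs, also lower in both.

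Among interferon-stimulated genes none was called higher with TNF in either genotype. Of 32 listed genes 9 were measured, and 1 was lower with TNF in TRIF-KO (background 10.1%) and 6 in WT (background 26.5%), or 4 in WT with median-of-ratios size factors. Ly6e stood at 812, 285, 957 and 1094 CPM in TRIF-KO with TNF, WT with TNF, TRIF-KO with PBS and WT with PBS, and Bst2 at 108, 18.2, 201 and 138 CPM. The lower values were thus those of WT with TNF. The zinc-binding metallothionein Mt1, in contrast, stood at 490, 806, 14.1 and 74.1 CPM, higher with TNF in both. The glucocorticoid-induced chaperone Fkbp5 stood at 173, 60.6, 8.47 and 46.0 CPM, with log2 ratios of 4.35 (2.72 to 6.67) in TRIF-KO and 0.40 (-0.88 to 1.59) in WT.

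The targeted gene gave no check of the genotype. Ticam1 (chromosome 17, 56269319 to 56276786, minus strand) had 4 UMIs in cDCs of TRIF-KO with TNF, 3 in WT with TNF, 4 in TRIF-KO with PBS and 4 in WT with PBS. A tag from the end of a transcript need not lie in the deleted stretch. Tlr4 had 0, 0, 2 and 0 UMIs and its co-receptor Cd14 had 4, 0, 0 and 0.

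With TNF in both, TRIF-KO cDCs had 508 genes higher (19.1%) and 139 lower (5.22%) than WT cDCs among 2665 compared, with a median log2 ratio of 0.33. Scaling moved this split to 313 higher and 258 lower, and leaving out the 3 cells rich in Lyz2 or haemoglobin moved it to 314 higher and 149 lower, with 285 of the 508 and 98 of the 139 still called. Of 21 maturation genes none was higher and 4 were lower in TRIF-KO, namely Ccr7, Fscn1, Ccl22 and Tbc1d4. The list had 10 lower under median-of-ratios scaling and 1 of 20 without the 3 cells. Ccr7 had a log2 ratio of -1.93 (-2.26 to -1.61) at 392 CPM in TRIF-KO and 1497 in WT. Tbc1d4, a regulator of vesicle traffic, stood at 467 CPM in TRIF-KO and 1085 in WT. Of 22 NF-kB circuit genes 1 was higher and 5 lower, or none higher and 3 lower of 20 without the 3 cells, and Nfkbia had a ratio of -1.02 (-1.30 to -0.74) at 687 CPM in TRIF-KO and 1388 in WT.

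Between the TNF libraries more cDC1 and interferon-stimulated genes were higher than lower in TRIF-KO, but the counts depended on the setting. All genes also leaned that way, with 19.1% higher, 5.22% lower and a median log2 ratio of 0.33. Of 13 cDC1 genes compared 7 were higher and 1 lower in TRIF-KO, 4 and 1 with median-of-ratios size factors, and 3 and 2 without the richest cells, but for Irf8 and Naaa most TRIF-KO UMIs came from 1 cell, as given above. Of 9 interferon-stimulated genes 6 were higher and none lower, which became 4 of 9 with median-of-ratios size factors, 4 of 8 without the 3 cells and 1 of 11 under the relaxed choice. Ly6e had a log2 ratio of 1.51 (1.05 to 1.99). Further genes lower in TRIF-KO were the transcription factor Foxp1 (77.8 CPM in TRIF-KO and 315 in WT), the kinase Pim1 (264 and 782) and the apoptosome scaffold Apaf1 (37.2 and 188). The genes with the highest ratios, among them Hmox1, Lyz2 and Ube2c, were carried by the 2 Lyz2-rich cells, which held 47 of the 48 Ube2c UMIs.

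With PBS in both, the fewest genes were called between libraries. The PBS libraries also held the most cDCs and UMIs, and the part of depth in the number called was not tested. Of 2669 genes 86 were higher in TRIF-KO cDCs (3.22%) and 134 lower (5.02%) than in WT cDCs. None of 14 cDC1 genes was higher or lower, and Irf8 stood at 881 CPM in TRIF-KO and 889 in WT. Of 21 maturation genes 10 were higher and none lower, and 6 were higher and 1 lower of 18 without the richest cell of each gene. Fscn1 was at least 23.2-fold higher with 55 of its 63 UMIs in 1 cell. Among cDC2 genes Cd209a stood at 410 CPM in 14 of 32 cells of TRIF-KO and 130 CPM in 7 of 25 cells of WT, Lyz2 at 912 and 110 CPM (reversed under the relaxed rule, log2 ratio -0.97), and Csf1r, the receptor for the macrophage growth factor, at 79.1 and 15.3 CPM. The chemokines Ccl6 (150 and 15.3 CPM) and Ccl9 (130 and 23.0 CPM) were higher too. Monocyte markers summed to 811 CPM in TRIF-KO and 276 CPM in WT, and their part in these differences was not tested. Lower in TRIF-KO were the class I-like gene H2-M2 (1 UMI in TRIF-KO against 81 in 3 cells of WT, log2 ratio -6.20, -11.52 to -3.68), Mt1 (14.1 and 74.1 CPM) and Fkbp5 (8.47 and 46.0 CPM).

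The responses to TNF themselves were compared as the log2 ratio in TRIF-KO minus that in WT. Among 2640 genes 607 had a difference of at least 1 (23%) and 163 of at most -1 (6.17%), with a median of 0.36. Of 17 maturation genes none was above 1 and 10 were below -1, with a median of -1.46. Ccr7 had a difference of -2.90 (-3.76 to -2.03), Glipr2 -4.83 (-7.32 to -2.34), the protease inhibitor Serpinb9 -3.26 (-4.51 to -2.0) and Gadd45b -2.45 (-3.36 to -1.55). In each of them 1 cell of TRIF-KO with PBS held a large part of the UMIs, namely 28 of 34, 16 of 21, 15 of 31 and 35 of 39. The lower responses in TRIF-KO thus combined lower levels with TNF, as in Ccr7, with higher levels with PBS. Fabp5 differed by 0.52 (-0.34 to 1.38).

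S100a4, a calcium-binding protein, separated the cDCs into groups with little between them. A limit of 5 UMIs was chosen after the values were seen, so the groups are a description. Cells with at least 5 UMIs were 9 of 23 in TRIF-KO with TNF, 6 of 18 in WT with TNF, 17 of 32 in TRIF-KO with PBS and 15 of 25 in WT with PBS, and 1, 0, 3 and 3 cells lay between 2 and 10. The median of Cst3 in the same order was 21, 15, 24 and 24 UMIs in S100a4-high cells, not far above the limit of 10. In S100a4-low cells it was 97.5, 79, 231 and 241.5 UMIs. The part of the Cst3 limit in the size of the S100a4 groups and in their mature counts was not tested. Of 33 cDC2-marked cells 32 were S100a4-high, and of 33 cDC1-marked cells 31 were S100a4-low. All Sirpa UMIs, 29, 7, 30 and 59 by library, lay in S100a4-high cells, and all Xcr1 UMIs, 9, 2, 97 and 87, in S100a4-low cells. Across 2674 genes 74 were higher (2.77%) and 33 lower (1.23%) in S100a4-high cells in every library.

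The mature cells were also counted in each S100a4 group. With TNF only 7 and 4 cells of TRIF-KO and WT were cDC1-marked and 3 and 3 cDC2-marked. Whether S100a4 follows lineage in mature cells without marks was not tested. In S100a4-high cells 5 of 9, 5 of 6, 0 of 17 and 1 of 15 were mature in TRIF-KO with TNF, WT with TNF, TRIF-KO with PBS and WT with PBS, and in S100a4-low cells 7 of 14, 7 of 12, 2 of 15 and 0 of 10. Both groups thus held mature cells with TNF. Fabp5 lay almost wholly in the S100a4-high cells, with 682 of 685, 512 of 518, 16 of 16 and 35 of 35 UMIs. Gpr183 lay there with 73 of 73, 54 of 54, 23 of 26 and 49 of 49 UMIs. Ccr7 was shared between them with TNF, at 24 and 92 UMIs in S100a4-high and S100a4-low cells of TRIF-KO and 62 and 185 of WT. Cd8a, a mark of splenic cDC1, lay mainly in S100a4-low cells also with TNF, with 17 of 19 and 5 of 6 UMIs.

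**Figure D4:**
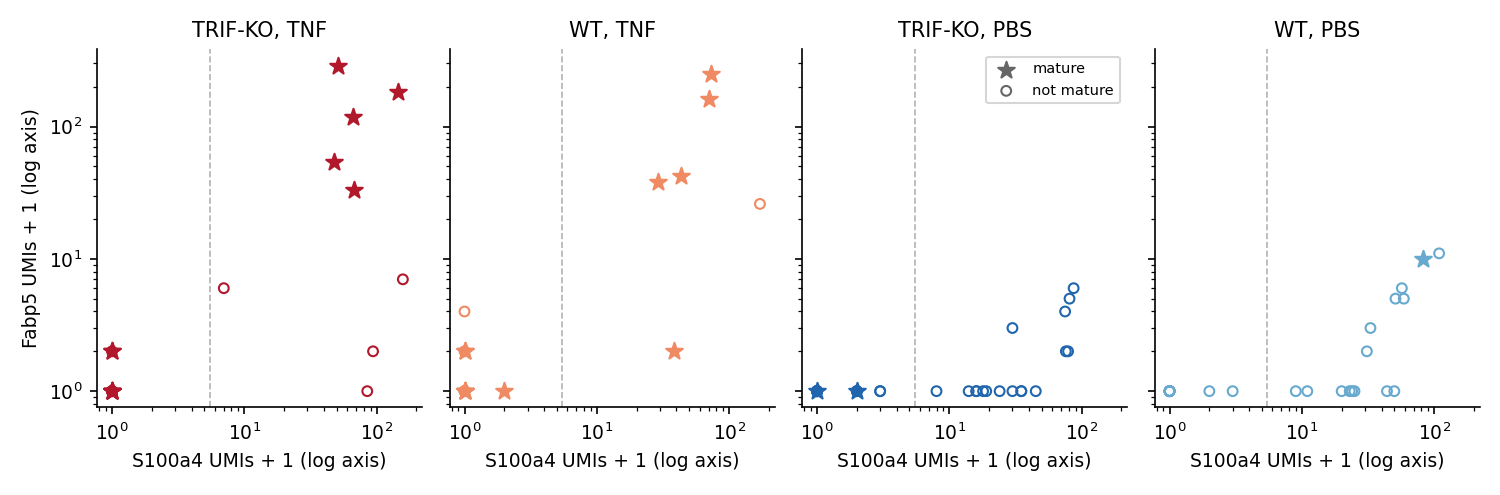
Fabp5 UMIs plus 1 (vertical axis, logarithmic) against S100a4 UMIs plus 1 (horizontal axis, logarithmic) in each cDC, 1 panel per library; stars mark mature cells and the dashed line the limit of 5 S100a4 UMIs, and points overlap at low counts. Cells with at least 3 Fabp5 UMIs numbered 7, 6, 3 and 5 from left to right, and all but 1 of them, in WT with TNF, lay right of the line.

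The response of cDCs was set beside that of other spleen cells. Ccr7 in all other kept barcodes had log2 ratios of TNF to PBS of -0.64 in TRIF-KO and 0.60 in WT. The ratios of cDCs exceeded these by 2.66 (2.11 to 3.21) in TRIF-KO and 4.32 (3.64 to 4.99) in WT. The other barcodes are a mixture of cell types that differed between libraries. Over all kept barcodes of TRIF-KO, B-cell markers summed to 2514 CPM with TNF and 4065 with PBS, and neutrophil markers to 18591 and 2364. In WT these sums were 3282 and 3363 CPM, and 4402 and 7920. The part of this mixture in the Ccr7 ratios was not tested. Cells rich in C1q, chosen as macrophages with at least 10 UMIs of the C1q genes, had Fabp5 ratios of 2.67 in TRIF-KO and 2.11 in WT, below those of cDCs by 2.99 and 3.05. Bcl2l11 was near level in them, at -0.65 and -0.17. Nfkbia, in contrast, was higher in the C1q-rich cells than in cDCs, with ratios of 1.60 and 2.94, and the difference of cDCs from them was -0.66 (-1.21 to -0.11) in TRIF-KO and -0.96 (-1.76 to -0.16) in WT. Irf8 in Siglech-bearing cells, chosen as plasmacytoid dendritic cells, had ratios of 0.00 in TRIF-KO and -0.85 in WT, against -1.88 and -4.61 in cDCs. The C1q-rich cells numbered 118, 45, 71 and 31 in TRIF-KO with TNF, WT with TNF, TRIF-KO with PBS and WT with PBS, and the Siglech-bearing cells 13, 7, 15 and 7.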

How the data were processed

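The authors deposited raw UMI counts per gene and barcode, whole numbers from 10x Genomics libraries, for each of the 4 spleen libraries. Per the submitters' processing notes Cell Ranger 3.0, Seurat 4.1.1 and the build mm10 were used, whereas per the file headers the matrices came from Cell Ranger 6.0.1. The gene annotation behind the counts was not named. Of 32285 gene IDs 32235 were matched to GENCODE M21 for coordinates.

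Deposited counts of the chosen cells were summed per library and scaled to CPM with numpy 2.4.6 and pandas 2.3.3. Genes of the choosing rule were left out, as were genes whose CPM in cDCs was under 20% of that in all kept barcodes (free RNA). Ratios carry exact conditional 95% intervals, levels exact Poisson intervals and shares Clopper-Pearson intervals (scipy 1.17.1). Intervals cover counting error only. The difference between responses had 0.5 added to each count. Against 0 UMIs a fold is a lower bound from a floor of 3 counts. No p-value was made, because the cells of 1 library share a source. Doublets were kept in the main values. Scrublet (scanpy 1.11.5, expected rate 0.06, removal at 0.8% per 1000 barcodes) was an alternative. It took 1, 1, 0 and 0 cDCs of TRIF-KO with TNF, WT with TNF, TRIF-KO with PBS and WT with PBS. The cell taken in TRIF-KO with TNF was 1 of the 2 Lyz2-rich cells. The ratio step was tested on simulated Poisson counts, with no free-RNA filter and no uneven spread over cells. That test cannot show how the calls and intervals behave for genes with most UMIs in 1 cell. The cells and the gene lists were chosen with earlier results of these data known. Genes were named by rank of the interval bound nearest to 1 among those at least 2-fold different, or as members of the lists. Other alternatives were median-of-ratios scaling, no minimum count, no free-RNA filter, cells of at least 3000 UMIs, cells thinned to 3000 UMIs, equal weight per cell, cDC2-marked cells alone, a stricter rule, and omission of the richest cell of each gene. The relaxed rule, the omission of 3 cells and the S100a4 groups were chosen after seeing the data.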

Additional observations from a re-analysis of the deposited data

Results flagged for a closer look

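Foxp1, a transcription factor of lymphocytes and myeloid cells, moved in opposite directions with TNF. It had 23 UMIs in TRIF-KO with TNF, 52 in WT with TNF, 56 in TRIF-KO with PBS and 33 in WT with PBS, with log2 ratios of TNF to PBS of -1.02 (-1.79 to -0.30) in TRIF-KO and 1.90 (1.25 to 2.58) in WT, a difference of -2.90. H2-M2 had 3, 2, 1 and 81 UMIs in the same order, with ratios of 1.85 (-1.79 to 7.56) and -4.09 (-7.16 to -2.19), a difference of 5.26, and its 81 UMIs lay in 3 cells. Ube2c, a cell-cycle gene, had 48, 1, 3 and 13 UMIs, with ratios of 4.26 (2.63 to 6.59) and -2.45 (-7.86 to 0.28), a difference of 5.98, and 47 of its 48 UMIs lay in 1 cell. For H2-M2 in TRIF-KO and Ube2c in WT the interval included 0, so of these genes only Foxp1 moved in opposite directions beyond counting error. With 1 library per group this was not tested.

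Barcodes that met every criterion except a UMI of Flt3 or Zbtb46 entered no comparison. At least 3 UMIs of Ccr7, Fscn1 and Ccl22 were found in 16 of 73 of them (21.9%) in TRIF-KO with TNF and 23 of 55 (41.8%) in WT with TNF, against 3 of 34 (8.82%) in TRIF-KO with PBS and 0 of 17 in WT with PBS. Their median depths were 2784, 2206, 2733 and 14088 UMIs. At least 100 UMIs of Lyz2, a lysozyme of monocytes and macrophages, were found in 8, 2, 4 and 10 of these barcodes. They cannot all be taken as cDCs, least of all in WT with PBS.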

How the results depend on the processing

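Counts and shares were recomputed under the alternatives, and in 113 of 152 such comparisons the value kept within 1.5 times the count, or within the interval of the share. Of 1480 comparisons of named genes, 14 changed sign, 309 moved past the counting interval and 1157 did neither. In cDC2-marked cells alone (3 in each TNF library) TNF went with 120 genes higher and 118 lower in TRIF-KO and with 96 higher and 207 lower in WT. TRIF-KO then had 234 higher and 81 lower than WT with TNF and 73 lower with PBS, and 309 responses differed. Of the 3 cDC2-marked cells of TRIF-KO with TNF, 1 was a Lyz2-rich cell with 31423 of their 56594 UMIs. In S100a4-high cells 137 genes were lower with TNF in TRIF-KO, and 122 higher and 340 lower in WT. There 292 were higher in TRIF-KO than in WT with TNF, and 436 responses differed. Both Lyz2-rich cells, with 31423 and 39329 UMIs, were S100a4-high, in a group of 174357 UMIs in TRIF-KO with TNF. In S100a4-low cells the counts were 99 higher and 122 lower in TRIF-KO, 122 higher and 289 lower in WT, 190 higher and 70 lower in TRIF-KO than in WT with TNF, 50 lower with PBS, and 370 responses. The relaxed rule gave 362 higher in WT and 327 higher in TRIF-KO than in WT with TNF, which was 314 without the 3 cells rich in Lyz2 or haemoglobin. Median-of-ratios scaling gave 457 lower in WT, and 313 higher and 258 lower in TRIF-KO than in WT with TNF, and weighting cells equally gave 445 lower in TRIF-KO. With no minimum count, TNF went with 1271 higher and 1571 lower in TRIF-KO and 1172 and 2236 in WT, TRIF-KO had 1622 higher and 913 lower with TNF and 1087 and 1394 with PBS, and 2768 responses differed. The stricter rule gave mature shares of 77.8% in TRIF-KO with TNF and a cDC1-marked share of 0% in WT with TNF (0 of 7). Reversed log2 ratios of TNF to PBS in TRIF-KO were those of Il4i1 (-0.036) and Ccl5 (-1.25) in S100a4-low cells, Ccl5 in cDC2-marked cells (-1.65), Havcr2 in S100a4-high cells (0.19), Cxcl9 under the stricter rule (-0.11), H2-M2 with equal weights (-0.017), and Ube2c without the 3 cells (-0.93) or its richest cells (-0.74). In WT they were Clec9a in S100a4-high cells (0.67) and Ube2c in S100a4-low cells (0.82). Between TRIF-KO and WT with PBS, Lyz2 reversed under the relaxed rule (-0.97) and Ccl6 in S100a4-low cells (-0.67), and between responses Serpinb9 in S100a4-high cells (0.48) and Ube2c in S100a4-low cells (-0.29). Fewer cells were compared in the lineage and S100a4 groups, and more genes with no minimum count; the cause of the other shifts was not tested. No paired analysis was possible because each group had 1 library. Between 18 and 32 cells per library limit each share to the intervals given, and genes under 60 UMIs were not compared.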
